A study of Mus musculus with 4 samples.

Results

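The 10 genes described here belong to the antioxidant system that is controlled by NRF2 and uses glutathione: Gclc, Gclm, Slc7a11, Gsr, Gpx3, Gstp1, Txnrd1, Srxn1, Prdx1 and Hmox1. They were taken by symbol from the gene lists of 4 single-cell RNA sequencing libraries of mouse lung, and all 10 were found in each library, among 30028 genes listed over the 4 libraries. Lungs came from mice 11 weeks old, and cells of 5 mice were pooled into each library, with 1 library per group. Normoxia-WT (NW) and Normoxia-FUNDC1-KO (NK) mice received vehicle and stayed in normoxia. HySu-WT (HSW) and HySu-FUNDC1-KO (HSK) mice were kept in hypoxia and received 3 weekly doses of SU5416, an inhibitor of VEGF receptors that is also known as a ligand of the aryl hydrocarbon receptor. HySu is a mouse model of pulmonary hypertension, and FUNDC1 is a protein of the mitochondrial surface that recruits the machinery of mitophagy. Hypoxia and SU5416 were given together, so their parts cannot be told apart. The labels do not say which allele was used or in which cells the gene was deleted, although the series title speaks of endothelial deficiency. Fundc1 was low over all kept cells of both knockout libraries, as given below.

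NRF2 is a transcription factor that KEAP1 holds at a low level in resting cells; oxidants and electrophiles release it, and it then binds antioxidant response elements near its target genes. The targets fall into linked systems: synthesis of glutathione, its use by peroxidases and transferases, the parallel thioredoxin and peroxiredoxin system, and breakdown of haem. In the lung, which is exposed to more oxygen than other organs, these enzymes are known to protect epithelium, macrophages and endothelium.

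The RefSeq promoter table for GRCm38.p6 held windows from 250 bases before to 50 bases after a transcription start for 7 of the 10 genes, 9 windows in all because Txnrd1 had 3. Gclc, Hmox1 and Gsr were not matched. The core of the antioxidant response element, TGACNNNGC, was searched on both strands and was found in windows of 4 genes. Each stretch below is 30 bases read 5′ to 3′ on the strand of the gene, with the core in capitals, which lies on the opposite strand in all 4. They are shown because all 4 genes were at least 1.5 times higher in endothelial cells of HySu knockout lungs than in those of knockout controls. In the wild-type pair Srxn1 and Txnrd1 were, but Gclm and Prdx1 were not, and Prdx1 did not reach it in the knockout pair either with another removal of mixed cells, as given below.
Srxn1, chr2:152105542-152105571: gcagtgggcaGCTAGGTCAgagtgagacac
Gclm, chr3:122245413-122245442: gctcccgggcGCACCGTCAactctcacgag
Prdx1, chr4:116685456-116685485: cagggaaagcGCTGAGTCAtcccccgtagg
Txnrd1, chr10:82859104-82859133: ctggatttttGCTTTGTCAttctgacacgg

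The core began 134 bases before the start in Gclm, 133 before in Prdx1, 92 before in Txnrd1 and 29 after it in Srxn1. The same letters occurred in 12.4% of all 32851 windows of the table, so a match describes the sequence and is not evidence of a bound site. The Gstp1 window on chromosome 19 held no such core. It held the core recognised by the aryl hydrocarbon receptor, GCGTG, 13 bases before the RefSeq start, and is shown because Gstp1 had the largest endothelial ratios of the 10 genes. The gene span of Gstp1 given below begins further upstream than this start, so the core lies within that span.
Gstp1, chr19:4037906-4037935 on the minus strand: ggtggcctacGCGTGcgtcctcactctgag

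This shorter core, searched on both strands and not overlapping the longer one, occurred in 32.4% of all windows. It was also present in windows of Srxn1, Gclm and Txnrd1. The windows of Slc7a11 and Gpx3 held neither core.

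The 4 libraries held 4128 to 9164 cell barcodes and 41308071 to 63501686 unique molecular identifiers (UMIs, each standing for 1 captured transcript). After removal of mixed cells 5760 (NW), 6438 (NK), 4107 (HSW) and 3664 (HSK) cells were kept. Cells were clustered and named from marker genes, so each class name means cells that are like that type. Levels are given as CPM, the UMIs of a gene scaled to the total UMIs of its class in that library. Fundc1 over all kept cells stood at 43.0, 1.00, 38.8 and 0.273 CPM in NW, NK, HSW and HSK, so the libraries labelled as knockout were the low ones. Vascular endothelial cells were 146 of the 6438 kept cells in NK and 132 of the 3664 in HSK. The low Fundc1 level was thus not confined to endothelial cells. Pairs of libraries shared 20 to 70 barcodes. With 1 library per group there was no replicate, so no test between groups could be made: every interval given after a level or ratio is a 95% interval of counting error, and differences between mice or captures are not in it. A ratio is called higher or lower here when it was at least 1.5 times up or down and the pair held at least 30 UMIs of the gene, which is a rule of size and not a test. HSW/NW and NK/NW share the NW library, and likewise each other library serves in more than 1 ratio.

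Vascular endothelial cells, which the series title names, were sampled unevenly, with 61, 146, 278 and 132 cells and 377104, 652668, 1758619 and 888851 UMIs in NW, NK, HSW and HSK. All 12 endothelial markers were detected in them in every library, at a summed level of 15196 to 17867 CPM, against at most 288.62 CPM in any of the 8 other classes with at least 50 cells in every library. The 61 cells of NW limit every ratio against that library.

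Across the 9 classes with at least 50 cells in all 4 libraries, 5 of the 10 genes (Gclc, Gpx3, Prdx1, Gsr and Slc7a11) kept the same highest class in all 4 libraries, and for the others the highest class differed between libraries. Gclc, the catalytic subunit of the rate-limiting enzyme of glutathione synthesis, was highest in alveolar type 2 cells of every library, at 558, 602, 429 and 402 CPM in NW, NK, HSW and HSK. Its counting intervals there did not overlap those of the next class in any library. Gpx3, the secreted glutathione peroxidase of plasma, was highest in fibroblasts, at 3347, 3836, 5026 and 4538 CPM in NW, NK, HSW and HSK. Endothelial cells came next for Gpx3 in all 4 libraries, far below, at 59.7 to 162 CPM.

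Prdx1, a peroxiredoxin that reduces hydrogen peroxide, was highest in alveolar macrophages, at 2041 (NW), 2111 (NK), 2284 (HSW) and 2402 (HSK) CPM. Gsr, glutathione reductase, was highest in classical monocytes, with neutrophils next, and these neighbours had overlapping intervals in all 4 libraries. Slc7a11, the cystine importer that feeds glutathione synthesis, was highest in neutrophils, at 30.9 to 55.3 CPM. In HSK, on 11 UMIs, the neutrophil interval overlapped that of classical monocytes, the next class. Slc7a11 was at most 24.2 CPM in every other class of the 9. In endothelial cells it had 0, 0, 1 and 0 UMIs in NW, NK, HSW and HSK. A count of 0 allows up to 7.96 CPM in NW, 4.60 in NK and 3.38 in HSK (3 counts per library).

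**Figure D1:**
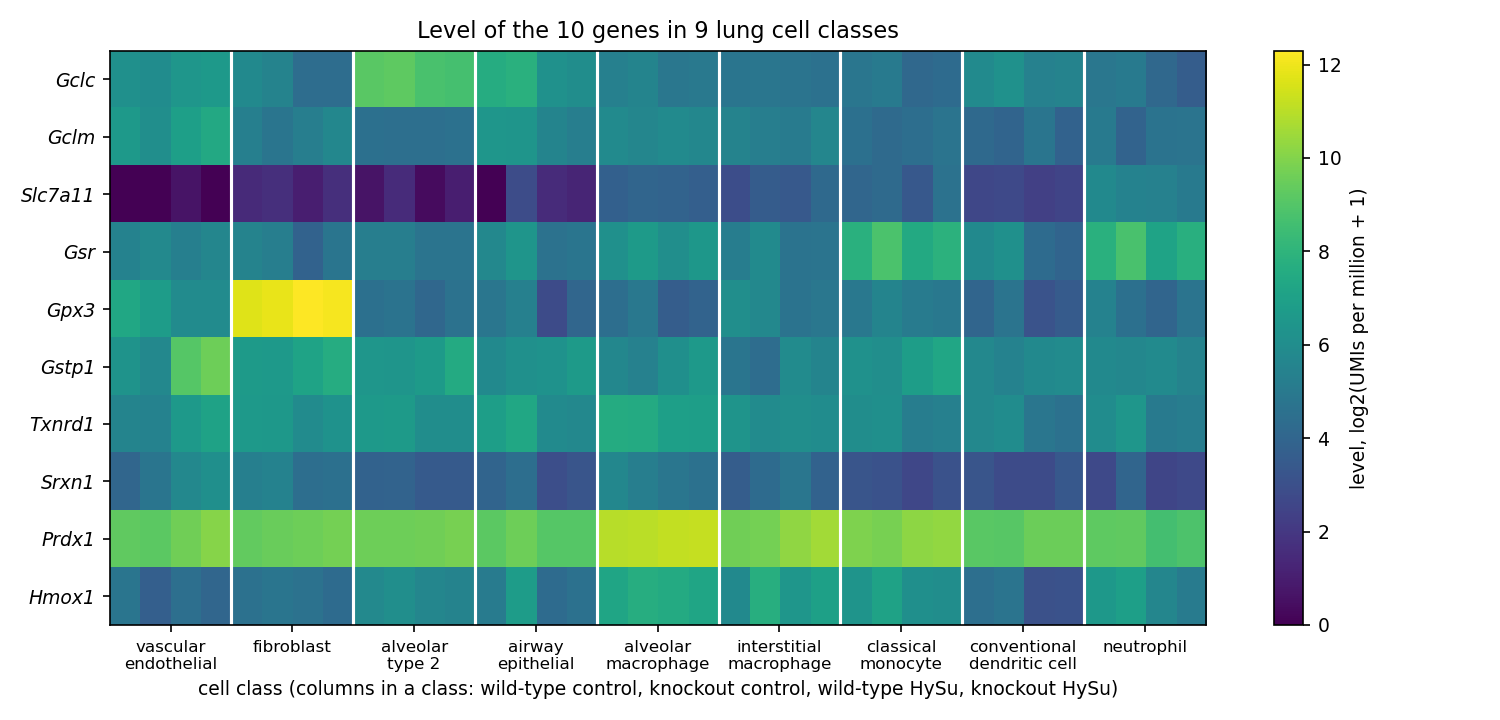
Level of each gene as log2(CPM + 1), by colour, in 9 lung cell classes, with the 4 libraries as columns within each class and no replicates. Gclc stands out in alveolar type 2 cells, Gpx3 in fibroblasts, Prdx1 in alveolar macrophages and Gsr in classical monocytes and neutrophils of all 4 libraries, while Gstp1 stands out in endothelial cells only in the HSW and HSK columns.

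The order of the classes for Gstp1, Srxn1 and Gclm depended on the treatment. Gstp1, a glutathione transferase that conjugates electrophiles, placed endothelial cells at rank 3 of 9 classes in NW and rank 5 in NK, with intervals that overlapped those of their neighbours. In HSW and HSK endothelial cells came first, at 3.92 and 3.90 times the level of fibroblasts, the next class, and the intervals were apart. Srxn1, the enzyme that repairs over-oxidised peroxiredoxins, placed endothelial cells at rank 3 in both controls and rank 1 under HySu, at 1.89 times alveolar macrophages in HSW and 3.00 times in HSK. Gclm, the regulatory partner of Gclc, had endothelial cells at rank 1 in NW and rank 2 in NK without separation from airway cells. Under HySu it stood at 2.14 times the next class in HSW and 3.30 times in HSK, with intervals apart. Txnrd1, the cytosolic thioredoxin reductase, was lowest of the 9 classes in endothelial cells of both controls, on 17 UMIs in NW and 28 in NK. The endothelial interval overlapped that of the next class in both. Txnrd1 had endothelial cells at rank 2 in HSW and rank 1 in HSK, where the interval overlapped that of alveolar macrophages.

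The first comparison asked how the genes differed in endothelial cells with HySu, in wild-type and in knockout lungs. Gstp1 showed the largest difference of the 10 genes in both. Its level was 79.6 CPM in NW (30 UMIs), 52.1 in NK (34 UMIs), 537 in HSW (945 UMIs) and 765 in HSK (680 UMIs). Both control libraries were low and both HySu libraries high, with no overlap of intervals. The ratio HSW/NW was 6.75 (4.70 to 10.1) and HSK/NK was 14.7 (10.4 to 21.4).

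In the thioredoxin and peroxiredoxin system, Txnrd1 stood at 45.1, 42.9, 98.9 and 135 CPM in NW, NK, HSW and HSK. The ratios were 2.19 (1.33 to 3.85) for HSW/NW and 3.15 (2.07 to 4.93) for HSK/NK. Srxn1 stood at 15.9, 26.0, 52.3 and 68.6 CPM in NW, NK, HSW and HSK, on 6, 17, 92 and 61 UMIs. Both HySu libraries again lay above both controls, with a ratio of 3.29 (1.45 to 9.19) for HSW/NW and 2.63 (1.52 to 4.81) for HSK/NK. Prdx1 stood at 626, 582, 785 and 1052 CPM. Its ratio was 1.25 (1.09 to 1.45) for HSW/NW, short of the size rule, and 1.81 (1.60 to 2.04) for HSK/NK.

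For glutathione synthesis, Gclm stood at 98.1, 65.9, 123 and 170 CPM in NW, NK, HSW and HSK. The NW and HSW intervals overlapped, with a ratio of 1.25 (0.880 to 1.83), and HSK/NK was 2.58 (1.83 to 3.71). Of the 37 Gclm UMIs in NW, 15 came from 6 cells of an unnamed sub-cluster led by red cell and cycling genes, and without that sub-cluster the ratios were 1.88 for HSW/NW and 2.94 for HSK/NK. Gclc, whose product binds that of Gclm, stood at 71.6, 62.8, 86.4 and 101 CPM, with ratios of 1.21 (0.798 to 1.89) for HSW/NW and 1.61 (1.10 to 2.39) for HSK/NK. Gsr, which regenerates reduced glutathione, was at 42.4, 55.2, 39.2 and 49.5 CPM, and neither ratio left the range set by counting error, at 0.925 (0.531 to 1.71) and 0.897 (0.565 to 1.44).

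Gpx3 went the other way. Its level was 162, 110, 59.7 and 60.8 CPM in NW, NK, HSW and HSK, so both HySu libraries were at about the same low level. The ratio was 0.369 (0.267 to 0.515) for HSW/NW and 0.551 (0.380 to 0.795) for HSK/NK. Hmox1, haem oxygenase 1, was at 26.5, 12.3, 21.6 and 15.8 CPM on 10, 8, 38 and 14 UMIs, with overlapping intervals in all 4 libraries. Its HSW/NW ratio was 0.815 (0.398 to 1.83), and too few UMIs were present for HSK/NK.

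**Figure D2:**
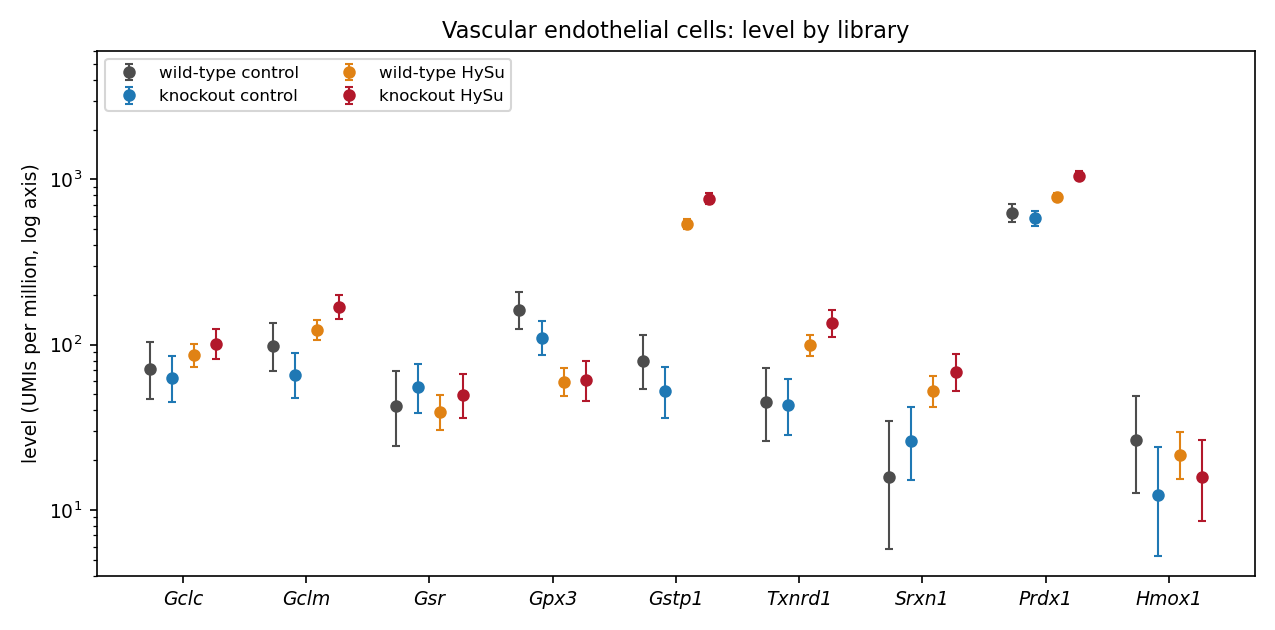
Level in vascular endothelial cells of 9 of the genes (CPM, log axis) in each of the 4 libraries; points are single libraries and bars are 95% Poisson intervals of counting error. Slc7a11 is left out because it had at most 1 UMI. Gstp1 separates control libraries (52.1 and 79.6 CPM) from HySu libraries (537 and 765 CPM), and Gpx3 is lower in both HySu libraries.

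By the size rule, 3 of the 9 genes that could be measured in HSW/NW were higher (Gstp1, Srxn1, Txnrd1), where 15.2% of 7840 measured genes were higher. In the same pair 1 of 9 was lower (Gpx3), where 18.5% of all measured genes were lower. In HSK/NK 6 of 8 were higher (Gstp1, Srxn1, Txnrd1, Gclc, Gclm, Prdx1) against a background of 13.4% of 6995 genes, and 1 of 8 was lower (Gpx3) against 27.1%. The shares higher were above the background in both pairs. However, the genes were chosen with earlier results of these data known, so these shares describe and do not test. The shares lower rested on 1 gene each, and with Scrublet calls alone removed (a caller of doublets) 4 genes were lower in HSW/NW and 3 in HSK/NK. The members' median ratio was 1.25 in HSW/NW and 2.19 in HSK/NK, beside 0.957 and 0.874 over all measured genes. Scaling the class sums by TMM, a normalisation that trims genes with extreme ratios, moved the background to 21.5% higher and 11.8% lower in HSW/NW and to 21.4% higher and 16.6% lower in HSK/NK.

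These calls depended in part on how cells were removed. With Scrublet calls alone removed, Txnrd1 was 1.48 for HSW/NW and 1.69 for HSK/NK, Prdx1 1.2 and Gclc 1.12 for HSK/NK, and Gclm 2.00 for HSW/NW. With cells thinned to equal depth, Gstp1 was 25.7 and Srxn1 1.44 for HSK/NK, and with the stricter rule on mixed cells Gpx3 was 1.01 for HSK/NK. With the endothelial subtypes weighted equally, Srxn1 was 5.05 for HSW/NW and Gclm 1.67. For Gstp1, HSW/NW lay between 5.23 and 7.66 and HSK/NK between 12.2 and 25.7 over 9 alternatives.

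Markers of other cells were present in the endothelial sums and moved with the groups. The 9 alveolar type 2 markers summed to 3424, 4183, 2426 and 5300 CPM in NW, NK, HSW and HSK, and the 6 club cell markers to 1936, 1823, 2772 and 5787. The 6 red cell markers summed to 10578, 139, 9533 and 5994 CPM, with Alas2 at 0 in NK. Cell cycle genes summed to 10.6, 9.19, 264 and 482 CPM. The 10 interstitial macrophage markers were at 324, 225, 81.3 and 100 CPM, with Cd163 and Folr2 at 0 in all 4 libraries. Among the 8 other classes with at least 50 cells in every library, Gstp1 under HySu was highest in fibroblasts. It stood there at 137 CPM in HSW and 196 in HSK. The part of transcripts from other cells in the endothelial ratios was not tested.

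The second comparison asked how knockout and wild-type endothelial cells differed. In normoxia none of the 7 measured genes was higher in NK than in NW, where 15.9% of 5905 genes were, and 1 of 7 was lower (Gstp1) where 9.92% were. The Gstp1 ratio NK/NW was 0.655 (0.389 to 1.11), so its interval reached 1, and that of Gclm was 0.671 (0.423 to 1.07). Gpx3 was 0.682 (0.478 to 0.975) and Prdx1 0.930 (0.789 to 1.10). The members' median ratio was 0.877, beside 1.04 over all measured genes. With no removal of mixed cells 0 genes were lower and 1 was higher.

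Under HySu none of the 9 measured genes reached 1.5 times in either direction between HSK and HSW, where 6.54% of 8328 genes were higher and 9.51% lower. Below that size, several were higher in HSK by more than counting error. Gstp1 had a ratio of 1.42 (1.29 to 1.57), Gclm 1.38 (1.12 to 1.71), Txnrd1 1.36 (1.07 to 1.73) and Prdx1 1.34 (1.23 to 1.46). Srxn1, at 1.31 (0.933 to 1.83), Gsr, at 1.26 (0.844 to 1.87), and Gclc, at 1.2 (0.892 to 1.53), had intervals that reached 1. Gpx3 was at 1.02 (0.719 to 1.43). The members' median ratio was 1.31, beside 0.976 over all measured genes, and 5 genes passed 1.5 times when the subtypes were weighted equally. In the same cells the club cell and alveolar type 2 marker sums were also higher in HSK, as given above.

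The difference of the HySu ratios between genotypes, HSK/NK over HSW/NW, was 2.17 (1.32 to 3.59) for Gstp1, 2.06 (1.27 to 3.35) for Gclm and 1.44 (1.2 to 1.73) for Prdx1. The values for Gclm and Prdx1 depended on cell removal. With Scrublet calls alone removed, HSW/NW and HSK/NK were 1.18 and 1.2 for Prdx1 and 2.00 and 2.68 for Gclm, and without the 6 unnamed cells of NW and their sub-cluster they were 1.88 and 2.94 for Gclm. For Txnrd1 it was 1.43 (0.752 to 2.74), for Gclc 1.34 (0.769 to 2.32) and for Srxn1 0.801 (0.299 to 2.15), all with intervals that included 1. These intervals again cover counting error only, so a difference between genotypes could not be tested over mice.

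Within the endothelium, Gstp1 was higher under HySu in each of the 4 named subtypes. Arterial cells had the highest level in every library, at 268, 91.2, 1451 and 2400 CPM in NW, NK, HSW and HSK, on 9, 12, 18 and 8 cells. Their intervals overlapped those of general capillary cells in both controls (14 and 5 arterial UMIs) and were apart from every other subtype in both HySu libraries. Aerocytes, the large capillary cells that face the alveolar gas, stood at 44.0, 43.3, 374 and 656 CPM. General capillary cells stood at 73.2, 60.3, 532 and 715, and venous cells at 50, 45.1, 263 and 329. The ratio HSW/NW ran from 5.25 (2.38 to 13.7) in venous cells to 8.5 (3.57 to 26.5) in aerocytes. For HSK/NK it ran from 7.28 (2.92 to 23.4) in venous cells to 26.3 (11.0 to 82.2) in arterial cells.

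**Figure D3:**
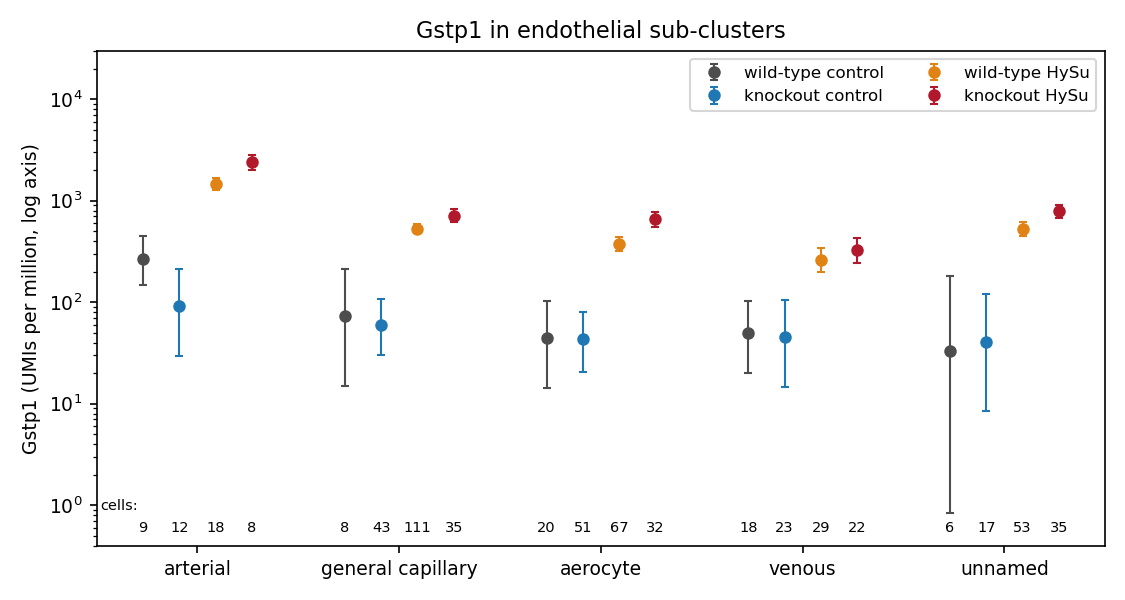
Gstp1 (CPM, log axis) in endothelial sub-clusters by library, with 95% Poisson intervals and the number of cells under each point; the unnamed sub-cluster was led by red cell and cycling genes. In all 5 groups of cells both HySu libraries lie above both controls, and arterial cells are highest in every library, with intervals that overlap those of general capillary cells in both controls.

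The ratio HSK/HSW varied between subtypes. In aerocytes Gclm was 115 CPM in HSW and 263 in HSK, a ratio of 2.28 (1.54 to 3.41), and Gstp1 had 1.75 (1.39 to 2.21). In arterial cells Gclm was 160 and 417 CPM, a ratio of 2.61 (1.42 to 4.81), and Prdx1 had 1.75 (1.31 to 2.32), on 18 and 8 cells. In general capillary cells Gclm was at 1.06 (0.671 to 1.62) and Prdx1 at 1.15 (0.980 to 1.35), and in venous cells Prdx1 was at 1.18 (0.949 to 1.47), all with intervals that included 1. Venous Gclm, at 0.589 (0.222 to 1.42), rested on 8 UMIs in HSK and 18 in HSW and did not meet the minimum of UMIs. Whether subtypes differ in this was not tested. Gpx3 was unevenly spread: aerocytes had 211, 164, 172 and 89.3 CPM in NW, NK, HSW and HSK, and general capillary cells 342, 104, 25.3 and 34.4. The general capillary ratio HSW/NW of 0.0742 (0.0344 to 0.163) rests on 8 cells of NW, whereas in aerocytes it was 0.813 (0.507 to 1.35).

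The share of endothelial cells with at least 1 Gstp1 UMI was 32.8%, 17.8%, 80.2% and 87.9% in NW, NK, HSW and HSK, at median depths of 5036, 4086.5, 5416.5 and 5968.5 UMIs per cell. With cells thinned to 4726 UMIs, and shallower cells left out, the shares were 26.5%, 13.9%, 74.9% and 85.6%. No class here is known to lack the gene. In neutrophils, given as a class of low level, the shares were 24.5%, 20.1%, 26.5% and 23.5% at median depths of 6593.5, 4860, 6147 and 6315 UMIs. Free RNA in the suspension would add to both classes, and the endothelial shares in NW and NK were close to those of neutrophils.

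Gstp1 lies at chromosome 19, 4035407 to 4037985, on the minus strand (GRCm38), beside the related genes Gstp2 and Gstp3. Of its exonic 50-base windows 33.7% were also found in Gstp2 and 20.3% in the pseudogene Gstp-ps, so reads could be divided among these copies. Gstp2 had 0, 0, 27 and 17 endothelial UMIs in NW, NK, HSW and HSK, and Gstp-ps stood at 29.2, 19.9, 75.1 and 115 CPM, so both copies had more in HySu libraries too. Gstp3 had at most 3 endothelial UMIs in any library. Prdx1 shared 8.29% and Gclm 3.92% of such windows with other genes, Slc7a11 0.618%, and the other 6 genes none.

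Over the 46 sums of a class in a library with at least 50 cells, the genes whose log2(CPM + 1) ran closest to that of Gstp1 were Gstp-ps (Pearson r = 0.80), Cyp1b1 (0.77) and Nqo1 (0.75). The points share libraries, depth and composition, so these values describe and do not test. Cyp1b1, a cytochrome P450 known as a target of the aryl hydrocarbon receptor, stood at 5.30, 4.60, 2151 and 1864 CPM in endothelial cells of NW, NK, HSW and HSK, and at most 156 in the 8 other classes. Nqo1, a quinone reductase known as a target of both NRF2 and that receptor, stood at 7.96, 1.53, 175 and 200 CPM, and at most 19.3 elsewhere. For other genes the closest were Plxna1 and Rin2 for Srxn1 (both 0.85) and Npw for Gclc (0.90). Cav2, a caveolin, was closest for Gclm (0.78), Atp6v1b2 for Hmox1 (0.85) and Cd300lb for Slc7a11 (0.90). Sod2, the mitochondrial superoxide dismutase, was closest for Prdx1 (0.84), Clec4e for Gsr (0.86) and Pcolce2 for Gpx3 (0.97).

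A further list of 84 genes of the same system, without the 10, was read in endothelial cells. It too was chosen with earlier results of these data known, so its shares describe and do not test. In HSW/NW 21 of 61 measured genes were higher and 7 lower, with a median ratio of 1.21, against the backgrounds of 15.2% and 18.5% given above. With TMM scaling the counts were 26 and 5, beside 21.5% and 11.8%. The quinone reductase Nqo1 led, at 3 UMIs in NW and 307 in HSW, a ratio of 21.9 (7.44 to 107). Osgin1, a growth inhibitor induced by oxidative stress, was at 4.22 (1.37 to 21.0), and Blvrb, a biliverdin reductase, at 3.65 (1.5 to 11.5), on 3 and 5 UMIs in NW. Bach2, a repressor of the family that competes with NRF2, was at 6.75 (1.79 to 57.0), on 2 UMIs in NW. Mafk, a small Maf partner of NRF2, was lower at 0.525 (0.307 to 0.933). So were G6pdx, which makes NADPH, at 0.542, and Hmox2, the constitutive haem oxygenase, at 0.556. G6pdx and Hmox2 were also lower in NK/NW, at 0.426 and 0.488, so NW stood above both NK and HSW for them.

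In HSK/NK 22 of 55 measured genes of this list were higher and 5 lower, with a median ratio of 1.30, against 13.4% and 27.1% of all genes. With TMM scaling the counts were 28 and 2, beside 21.4% and 16.6%. By role, 5 of 7 quinone and aldehyde enzymes, 4 of 7 haem and iron genes and 5 of 12 further glutathione genes were higher. So were 3 of 6 NADPH genes, 2 of 3 superoxide and catalase genes and 2 of 2 further targets. Among sensors and partners 0 of 8 were higher, and among thioredoxin and peroxiredoxin genes 1 of 10. The split differed in HSW/NW. There 3 of 8 quinone and aldehyde enzymes, 0 of 6 NADPH genes and 0 of 3 superoxide and catalase genes were higher. Sensors and partners had 2 of 9 higher, and thioredoxin and peroxiredoxin genes 4 of 10. Haem and iron genes had 4 of 8, further glutathione genes 6 of 15 and further targets 2 of 2. Gstm1, a glutathione transferase, was at 645 CPM in NK and 2058 in HSK, a ratio of 3.19 (2.87 to 3.56). Ftl1, the ferritin light chain, was at 169 and 798 CPM, a ratio of 4.73 (3.87 to 5.84), and Cbr3, a carbonyl reductase, had 4.41 (2.07 to 10.8). Red cell markers (139 and 5994 CPM) and club cell markers (1823 and 5787 CPM) were also higher in HSK than in NK, and their part in these ratios was not tested. Aldh1a1, a retinal dehydrogenase, was lower at 0.304, as was Tkt, transketolase, at 0.653. Cul3, the ligase scaffold used by KEAP1, at 0.631, and Bach1, a repressor of NRF2 targets, at 0.693, also had intervals below 1.

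Between genotypes the further list differed less. In HSK/HSW 3 of 67 measured genes were higher and 4 lower, with a median ratio of 1.07, against 6.54% and 9.51% of all genes. Ftl1 was at 451 CPM in HSW and 798 in HSK, a ratio of 1.77, Fth1, the ferritin heavy chain, had 1.33 (1.26 to 1.39) and Txn1, thioredoxin, 1.2 (1.13 to 1.28). Mgst2, a microsomal glutathione transferase, was at 0.371 on 6 UMIs in HSK and 32 in HSW. In NK/NW 5 of 46 were higher and 7 lower, against 15.9% and 9.92% of all genes, so the share higher was not above the background. The highest were Maff, a small Maf factor, at 2.14 (1.24 to 3.90), and Txnip, the inhibitor of thioredoxin, at 1.90 (1.66 to 2.19). Cbr1, G6pdx and Pgd were lower at 0.365, 0.426 and 0.440, on 12, 14 and 16 UMIs in NK.

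The third question was how the 10 genes behaved in the other classes. Under HySu the CPM of most genes was lower in these classes. The median log2 ratio over all genes ran from -0.23 in alveolar macrophages to -0.86 in airway cells for HSW/NW, and from -0.35 to -1.28 in the same classes for HSK/NK. Ratios there are therefore given relative to the median of all genes in the class. In endothelial cells this shift was -0.06 and -0.19.

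Gstp1 lay above the median in all 8 other classes, at 1.40 to 2.99 times it for HSW/NW and 1.46 to 3.43 times for HSK/NK, and likewise above 1 with TMM scaling in all 8. The endothelial values on this scale were 7.06 and 16.8. Prdx1 was above the median in 7 of 8 classes for HSW/NW and in 8 of 8 for HSK/NK, at 1.24 to 2.64 times it. Gclm was above it in 7 of 7 measured classes for HSK/NK, at 1.06 to 2.59 times. Txnrd1, by contrast, lay below the median in 7 of 8 other classes for HSW/NW and in 6 of 8 for HSK/NK. Gclc and Gsr each lay below it in 6 of 8 classes for both pairs.

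**Figure D4:**
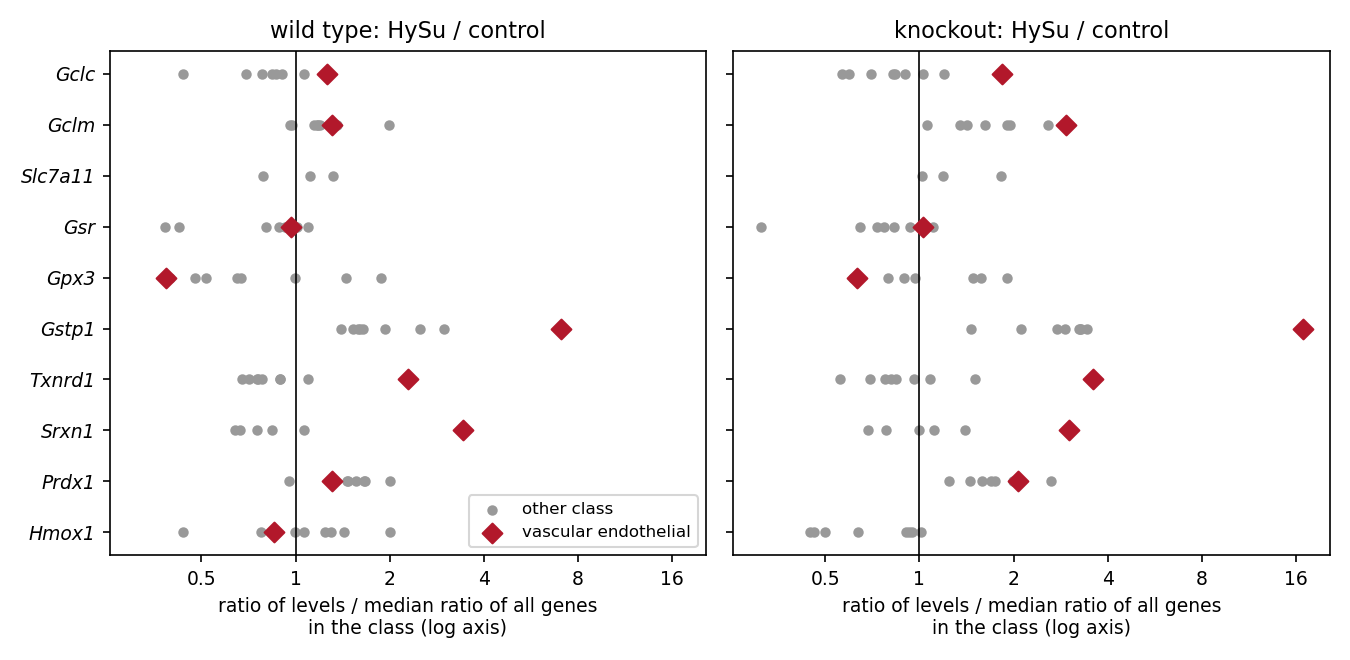
Ratio of HySu to control level, divided by the median ratio of all genes in the same class (log axis), for each gene with at least 30 UMIs in the pair; diamonds are vascular endothelial cells, grey points the other classes, each from 1 library per group. For Txnrd1, Srxn1 and Gstp1 the endothelial value lies to the right of every other class in both panels, and for Gpx3 it lies at the low end in wild type.

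Alveolar macrophages, with 897 to 1731 cells per library, gave the most precise contrast with endothelium. Srxn1 was 50.7, 37.3, 27.7 and 22.9 CPM in NW, NK, HSW and HSK, so both HySu libraries were below both controls. The ratio was 0.546 (0.477 to 0.624) for HSW/NW and 0.614 (0.536 to 0.703) for HSK/NK, and with TMM scaling 0.631 and 0.755. Txnrd1 was 191, 179, 123 and 119 CPM, with ratios of 0.644 (0.603 to 0.687) and 0.663 (0.624 to 0.703), and 0.744 and 0.815 with TMM scaling. Thus both genes were lower under HySu in alveolar macrophages and higher in endothelial cells of the same libraries. The alveolar macrophage class pooled several clusters in unequal shares. The cluster led by Gdf15 held 556 of 1122 such cells in NW, 666 of 1731 in NK, 289 of 897 in HSW and 340 of 1241 in HSK. The part of this mix in the ratios was not tested.

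Gpx3 lay below the median of all genes in 6 of 8 other classes for HSW/NW and in 5 of 8 for HSK/NK. Its lower level under HySu was thus not particular to endothelial cells. In fibroblasts, however, Gpx3 ran against its endothelial direction. Its ratio HSW/NW was 1.5 (1.44 to 1.57) and 1.86 with TMM scaling, and HSK/NK was 1.18 (1.14 to 1.23) and 1.52. Markers of other cells also differed in the fibroblast sums: alveolar type 2 markers stood at 9672, 11531, 2218 and 8779 CPM in NW, NK, HSW and HSK, and the 10 interstitial macrophage markers at 1626, 1627, 4450 and 3076 CPM. Their part was not tested. In alveolar type 2 cells the Gclc ratios of 0.768 for HSW/NW and 0.668 for HSK/NK were 1.04 and 1.01 with TMM scaling, close to the shift of all genes.

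Between genotypes, Gstp1, Gsr and Hmox1 were among the genes that differed outside the endothelium. The Gstp1 ratio HSK/HSW was 1.75 in alveolar type 2 cells. With TMM scaling the interval of this ratio lay above 1 in 5 of 8 other classes. Gsr in classical monocytes was 222, 449, 176 and 239 CPM in NW, NK, HSW and HSK. The ratio NK/NW was 2.02 (1.88 to 2.16) and HSK/HSW 1.36 (1.19 to 1.54). In neutrophils the levels were 219, 434, 140 and 216 CPM, with ratios of 1.98 (1.72 to 2.28) and 1.55 (1.12 to 2.13). In alveolar macrophages they were 70.2, 102, 65.6 and 88.8 CPM, with ratios of 1.45 (1.35 to 1.57) and 1.35 (1.24 to 1.49). Non-classical monocytes had 190 (NW) and 373 (NK) CPM, and the ratio NK/NW had an interval of 1.79 to 2.16. Gsr also passed 1.5 times for NK/NW in airway epithelial cells, on 118 UMIs in NW and 215 in NK. There the median log2 ratio over all genes was 0.31. Interstitial macrophages passed it too, on 22 and 31 UMIs. In alveolar type 2 cells and fibroblasts NK/NW was 0.994 (0.835 to 1.18) and 0.854 (0.568 to 1.29), with intervals that included 1. Neutrophil markers in classical monocytes summed to 3519, 1061, 2183 and 2138 CPM in NW, NK, HSW and HSK. Their part in the Gsr ratios was not tested. Neutrophils came from 2 clusters, 1 of which held 199 of 220 such cells in NW and 150 of 179 in NK but 47 of 83 in HSW and 27 of 51 in HSK.

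Hmox1 in normoxia had a ratio NK/NW above 1 in all 8 other classes, relative to the median as well, but reached 1.5 in 3 of them, and with TMM scaling the interval lay above 1 in 4. Interstitial macrophages had 55.5, 205, 86.0 and 128 CPM in NW, NK, HSW and HSK, a ratio NK/NW of 3.69 (2.49 to 5.59). Airway epithelial cells had 33.7, 110, 18.5 and 22.7 CPM, a ratio of 3.27 (2.53 to 4.28), and 2.66 with TMM scaling. Non-classical monocytes had 133 CPM in NW and 278 in NK, a ratio of 2.09 (1.87 to 2.34), and classical monocytes 82.2 and 137 CPM, a ratio of 1.66 (1.47 to 1.87). Alveolar macrophages had 148, 199, 180 and 148 CPM, a ratio of 1.34 (1.27 to 1.42).

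Under HySu the Hmox1 ratio HSK/HSW was 0.823 (0.774 to 0.875) in alveolar macrophages and 1.48 (1.08 to 2.05) in interstitial macrophages. In endothelial cells NK/NW for Hmox1 rested on 8 and 10 UMIs and was not measured. The 11 alveolar macrophage markers in interstitial macrophages, of which 10 were detected, summed to 3231, 6580, 8734 and 20923 CPM in NW, NK, HSW and HSK. The 10 interstitial macrophage markers in airway cells summed to 66.5, 160, 33.5 and 65.2 CPM, with Cd163 and Folr2 at 0 in NW, Ms4a7 in NK, Cd163 in HSW and Folr2 in HSK. Their part in the Hmox1 levels was not tested.

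**Figure D5:**
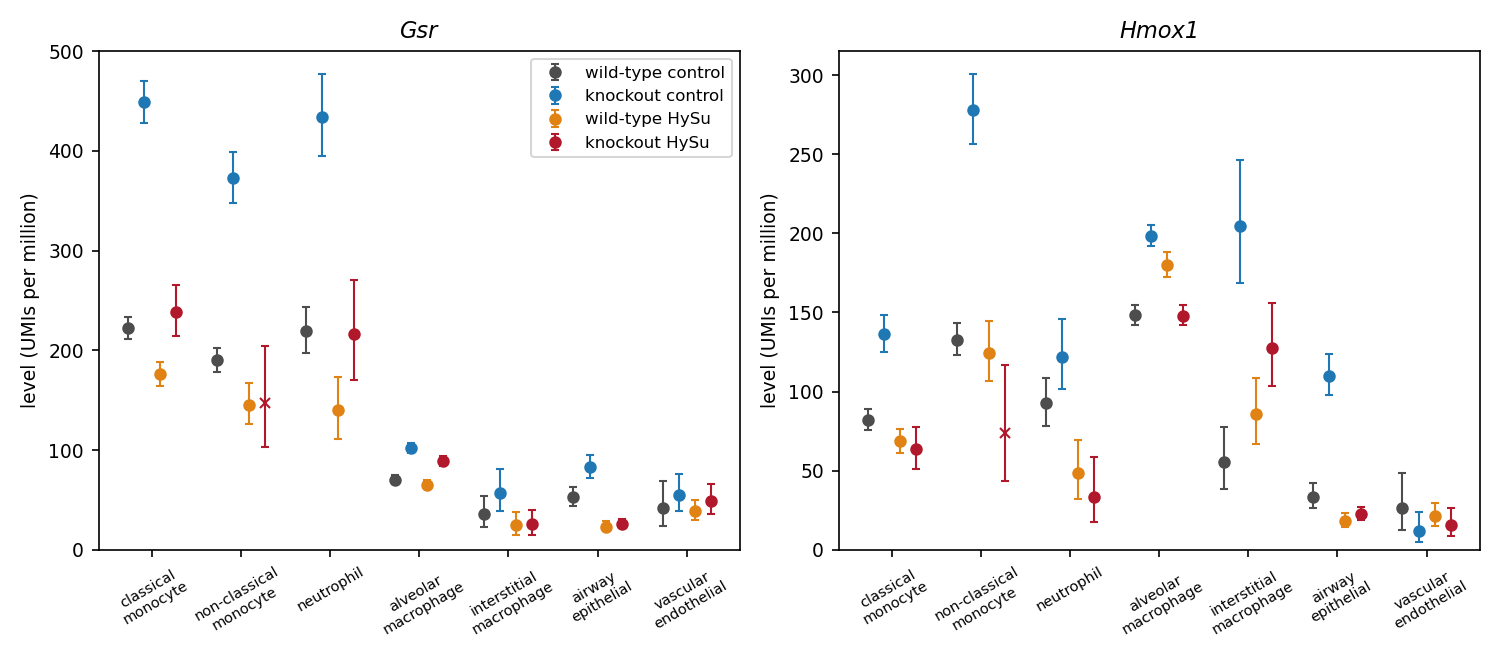
Levels of Gsr and Hmox1 (CPM, linear axis) in 7 cell classes by library, with 95% Poisson intervals; crosses mark a class with fewer than 50 cells in that library. The NK library has the highest Gsr in all classes shown and the highest Hmox1 in all of them except vascular endothelial cells. Its Gsr level rests on 36 UMIs in endothelial cells and 31 in interstitial macrophages.

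Gclm in normoxia lay on the other side: NK/NW was below the median of all genes in 8 of 8 other classes, with ratios of 0.434 to 0.993. Alveolar macrophages gave 0.842 (0.765 to 0.928) and neutrophils 0.434 (0.222 to 0.794). Slc7a11 in classical monocytes was 15.5, 18.2, 9.51 and 24.2 CPM in NW, NK, HSW and HSK, with a ratio HSK/HSW of 2.54 (1.59 to 4.04) on 35 and 45 UMIs.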

How the data were processed

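Single-cell RNA was measured with Singleron GEXSCOPE microwell libraries, 1 per group. The deposited matrices held whole-number counts of UMIs per gene and cell, which the authors did not normalize. Reads were handled with STAR 2.6.1a, featureCounts 2.0.1, cutadapt 1.17 and Scanpy on GRCm38 and mm10, per the submitters' processing notes; their order, settings and use of strand are not given in the sources used here. Each matrix held only cells above a lowest UMI total of 3182 to 4726, so shares of cells depend on where each library was trimmed. The 10 genes and all lists were chosen with earlier results of these data known.

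Cells with fewer than 200 genes or over 20% mitochondrial UMIs were left out (1 in NK, 1 in HSW). Libraries were clustered together in scanpy 1.11.5 on 2000 variable genes, without the 10 genes and the further list of 84. The clustering used 40 components and 20 neighbours, and Leiden communities were taken at resolution 1 (leidenalg 0.10.2). Scrublet called 4, 1, 8 and 30 cells in NW, NK, HSW and HSK, under 0.5% in 3 of them, so it did not work as a doublet caller here. Cells with 3 or more UMIs of a second lineage, at over 0.15 of its reference level, were therefore also removed, a rule set after the clusters were seen. Removal took 24.7% (NW), 29.7% (NK), 18.5% (HSW) and 11.2% (HSK) of cells, unequally between groups. Airway cells of HSK had a median of 18804 UMIs, so doublets may remain. Unnamed clusters held 1.61% to 3.68% of kept cells.

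UMIs were summed per class and library. Levels carry exact Poisson and ratios exact conditional-binomial (Clopper-Pearson) 95% intervals, for counting error only, and no p-value is given because no group has a replicate. The ratio code was tested on simulated data. Alternatives were TMM scaling (edgeR 4.0.16), other cell removal, resolution 2, thinning each cell to 4726 UMIs (1374, 2684, 456 and 0 shallower cells dropped), equal subtype weights, other UMI minimums and a fold of 2. Named list genes are up to 4 highest and 4 lowest ratios per comparison among those with 30 UMIs and an interval without 1; genes alike are the 3 highest Pearson r among genes with at least 1000 UMIs. Promoter stretches are from RefSeq, and gene positions from GENCODE for GRCm38. The gene closest to Txnrd1 and the value of 1 red cell marker are not reported here.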

Additional observations from a re-analysis of the deposited data

Results flagged for a closer look

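Hmox1 in alveolar macrophages had a HSW/NW ratio of 1.22 and a HSK/NK ratio of 0.746, neither of which reached 1.5 times. Relative to the median of all genes in the class HSK/NK was 0.949. The second ratio divided by the first was 0.614 (0.566 to 0.666). In interstitial macrophages HSW/NW was 1.55 and HSK/NK 0.623, and the second divided by the first was 0.402 (0.246 to 0.659). Both drew attention because the ratios of the 2 genotypes lay on opposite sides of 1. With TMM scaling HSK/NK was 0.917 in alveolar and 0.901 in interstitial macrophages, nearer to 1, with HSW/NW at 1.40 and 2.07. The alveolar macrophage markers within interstitial macrophages stood at 3231 CPM in NW, 8734 in HSW, 6580 in NK and 20923 in HSK, and their part was not tested. With 1 library per group, the difference between genotypes was not tested over mice.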

How the results depend on the processing

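No paired analysis was possible because each group had 1 library. Over 315 ratios of a gene in a class, TMM scaling moved 84 beyond their counting interval and turned 3. Scrublet calls alone moved 31 and turned 2, no cell removal 29 and 2, and thinning 50 and 2. The stricter rule on mixed cells moved 6 and turned 1, and resolution 2 moved 2 and turned 0. Letting the 10 genes and the further list into the clustering moved 0. The cause was not tested. The turned ratios were as follows. With TMM scaling Hmox1 HSW/NW in airway cells was 1.01, Gclm HSK/NK in airway cells 1.03 and Hmox1 HSK/NK in alveolar type 2 cells 1.00. Thinned, Hmox1 HSW/NW in airway cells was 1.15 and Gpx3 NK/NW in conventional dendritic cells 0.810. Gpx3 HSK/NK in conventional dendritic cells was 2.6 with Scrublet calls alone and 2.6 with no removal, and Gsr HSK/HSW in fibroblasts 0.820 and 0.928. Gpx3 HSK/NK in endothelial cells was 1.01 with the stricter rule, which was chosen after seeing the data.

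Of the counts in endothelial cells, those higher in HSW/NW (3) and HSK/NK (6) stayed within 1.5 times under the alternatives. The genes behind them changed, as given above. With Scrublet calls alone Txnrd1 fell below 1.5 times in HSW/NW and Gclm passed it. In HSK/NK Prdx1 and Gclc then fell below it, as did Srxn1 with cells thinned. For HSW/NW, lower (1), the count was 4 with Scrublet calls alone, 4 with no removal and 2 thinned. For NK/NW, higher (0), it was 1 with Scrublet calls alone, 1 with no removal and 1 with no UMI minimum. For NK/NW, lower (1), it was 3 with TMM scaling, 2 with equal subtype weights, 2 with no UMI minimum, and 0 with Scrublet calls alone, no removal, thinning, 100 UMIs or a fold of 2. For HSK/HSW, higher (0), it was 2 with Scrublet calls alone, no removal or without the unnamed sub-cluster, and 5 with equal weights. For HSK/HSW, lower (0), it was 1 with equal weights, without the unnamed sub-cluster or with no UMI minimum. For HSK/NK, lower (1), it was 3 with Scrublet calls alone or no removal, 2 thinned, and 0 with the stricter rule or a fold of 2. The 61 endothelial cells of NW and 30 Gstp1 UMIs limit every HSW/NW value.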
